A study of Arabidopsis thaliana with 6 samples.

Results

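The circadian clock of Arabidopsis was represented here by 10 genes: CCA1, LHY, PRR9, PRR7, PRR5, PRR3, GI, COR27, TOC1 and LUX. Of these, 6 had a probe set that could be named, among 22746 probe sets of the ATH1 array. The platform annotation named GI (AT1G22770) and COR27 (AT5G42900). The pairs of probe sets and loci in the study's supplement named CCA1 (AT2G46830), LHY (AT1G01060) and PRR3 (AT5G60100), and also 1 probe set that reads LUX (AT3G46640) together with its relative BOA (AT5G59570), which cannot be told apart there. Those pairs come from transcripts that the study selected in other translation mutants and from ribosomal protein genes, so which clock genes could be named depends on that selection. No probe set was named for PRR9, PRR7, PRR5 and TOC1, and they were not analysed here.

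Transcript levels were measured in the aerial part of 11-day-old Columbia seedlings, with 3 arrays of the eif3k mutant and 3 arrays of wild-type. The mutant was a single T-DNA line, interrupted in intron 6 of eIF3k, which encodes a subunit of the translation initiation factor eIF3, and the study's methods describe a transcript shortened at its 3′ end and no full-length one. Per the labels, all seedlings were grown on agar (0.8%) with 1% sucrose at 22 °C under 16 h of light and were collected 4 h after lights on, whereas the methods give continuous light for the mutant, and this was not settled in the sources used here. A first array date holds replicates 1 and 2 of each genotype, and a later date holds replicate 3 of each. The samples were described as biological replicates. Whatever else differed between replicate 3 and the others cannot be told apart from the array date, and in whole tissue fewer cells of a type cannot be told apart from less RNA in each cell.

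In Arabidopsis, the clock is built from transcriptional repressors that follow each other through the day. The MYB factors CCA1 and LHY accumulate around dawn and repress genes of the evening. The pseudo-response regulators then take over from morning to dusk, and in the evening LUX, with ELF3 and ELF4, forms a complex that represses day genes.

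The probe set of eIF3k itself had log2 signals of 6.81, 6.62 and 7.52 on the eif3k arrays, against 8.82, 9.18 and 8.89 on the wild-type arrays, so the 2 genotypes did not overlap (limma adjusted p = 0.864). Array medians were 4.02 to 4.12. A common floor of 2.25, where levels are not resolved, held 25.5% to 26.8% of the probe sets. A 25S rRNA control read 8.13 on eif3k replicate 3, against 12.04 to 12.87 on the other 5 arrays. The control probe set at the 5′ end of GAPDH read 7.77 and 7.10 on the later arrays, against 8.44 to 8.95 on the first-date arrays. That at the 3′ end was also lower there, at 11.69 and 12.12 against 12.62 to 13.04. The GAPDH signal at the 3′ end exceeded that at the 5′ end by 5.02 on wild-type replicate 3, against 3.92 to 4.18 on the other 5 arrays. The lowest of these, 3.92, was on eif3k replicate 3. The leaf marker RCA, which encodes the activase of Rubisco, read between 14.88 and 15.06 on all arrays. Of the 3 root marker probe sets, EXPA7 and EXPA18, which mark root hairs, stayed within 0.01 of the floor. PYK10, a beta-glucosidase abundant in roots, read 11.61 and 11.42 on the later arrays, against 10.40 to 11.44 on the first-date arrays. The part of these control and marker values in the results that follow was not tested. The date difference of each clock member is also given within each genotype, but both later arrays differed from the others in a control.

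The first comparison asked how replicate 3, on the later array date, differed from replicates 1 and 2 for genes of different phase. The transcripts PRR3, COR27 and LUX with BOA were at or near the floor on all 4 first-date arrays. They were clearly measured on both later arrays, in eif3k as in wild-type. CCA1, of the dawn, had lower signals on both later arrays. CCA1, LHY and GI did not pass the test, and the differences of LHY had opposite signs in the genotypes. GI, which peaks toward dusk, did not share the rise of PRR3, COR27 and LUX with BOA, with a log2 difference of -0.33. With limma on all 6 arrays (date and genotype in the model, an adjusted p under 0.05 over all probe sets and at least a 2-fold difference), 3 of the 6 clock probe sets were called higher on the later date and 0 lower. Over all probe sets 51 (0.224%) were called higher and 25 (0.11%) lower.

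CCA1 had log2 signals of 8.84 in eif3k and 8.69 in wild-type on the later date. First-date arrays read 9.40 and 9.78 in eif3k and 10.40 on both wild-type arrays. The later arrays were thus below all first-date arrays, without overlap. Over all probe sets 10.3% were separated in this direction. The difference between the dates was -1.23 on the log2 scale (standard error 0.29), or 2.35-fold lower on the later date (unadjusted p = 0.0186, limma adjusted p = 0.221), and did not pass the threshold. It was -0.75 within eif3k and -1.71 within wild-type, and a test of the difference between these (0.96, limma adjusted p = 0.433) did not pass. The difference passed when only brighter probe sets (those whose average over arrays exceeded the median one) were tested, at a limma adjusted p of 0.0363.

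LHY is the close relative of CCA1 that acts with it at dawn. It read 9.20 in eif3k and 8.16 in wild-type on the later date. Its first-date signals were 7.34 and 8.20 in eif3k and 8.39 and 8.76 in wild-type. In eif3k the later array was thus the highest of the 3, and in wild-type the lowest of the 3. The log2 difference between the dates was 1.43 in eif3k and -0.415 in wild-type, and 0.51 over both (standard error 0.59, limma adjusted p = 0.881). The difference of 1.84 between the genotypes did not pass either (standard error 0.74, unadjusted p = 0.112, limma adjusted p = 0.551).

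PRR3, a pseudo-response regulator that stabilises TOC1 in the evening, read 6.03 in eif3k and 5.89 in wild-type on the later date. On the first date it read 2.25 and 2.28 in eif3k and 2.25 on both wild-type arrays. The gap between the lowest later array and the highest first-date array was 3.61. The later arrays were higher by 3.70 on the log2 scale (standard error 0.04, limma adjusted p = 0.00339). It was 3.765 within eif3k and 3.64 within wild-type.

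GI, a large plant protein that peaks toward dusk and links the clock to flowering, was not called. It read 5.19 in eif3k and 5.25 in wild-type on the later date. First-date arrays read 6.08 and 5.33 in eif3k and 5.59 and 5.19 in wild-type. The dates overlapped, as the lowest wild-type array of the first date equalled the later eif3k array. The difference was -0.33 on the log2 scale (standard error 0.30, limma adjusted p = 0.768). It was -0.515 within eif3k and -0.14 within wild-type, and both values were within the spread of the replicates.

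COR27, a cold-inducible gene whose product feeds back on evening genes, read 5.91 in eif3k and 6.42 in wild-type on the later date and stood at the floor of 2.25 on all 4 first-date arrays. The later arrays were higher by 3.915 on the log2 scale (standard error 0.14, limma adjusted p = 0.022). Because the first-date arrays were at the floor, the true difference may be larger. It was 3.66 within eif3k and 4.17 within wild-type.

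The probe set shared by LUX, the DNA-binding part of the evening complex, and BOA, its relative, read 5.96 in eif3k and 5.62 in wild-type on the later date. Its first-date signals were 2.37 and 2.33 in eif3k and 2.35 and 2.31 in wild-type. The later arrays were higher by 3.45 on the log2 scale (standard error 0.09, limma adjusted p = 0.0204). It was 3.61 within eif3k and 3.29 within wild-type. For PRR3, COR27 and this probe set both later arrays were thus above all first-date arrays, as they were for 10.6% of all probe sets. The spread within the first date was that of arrays at or near the floor.

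**Figure D1:**
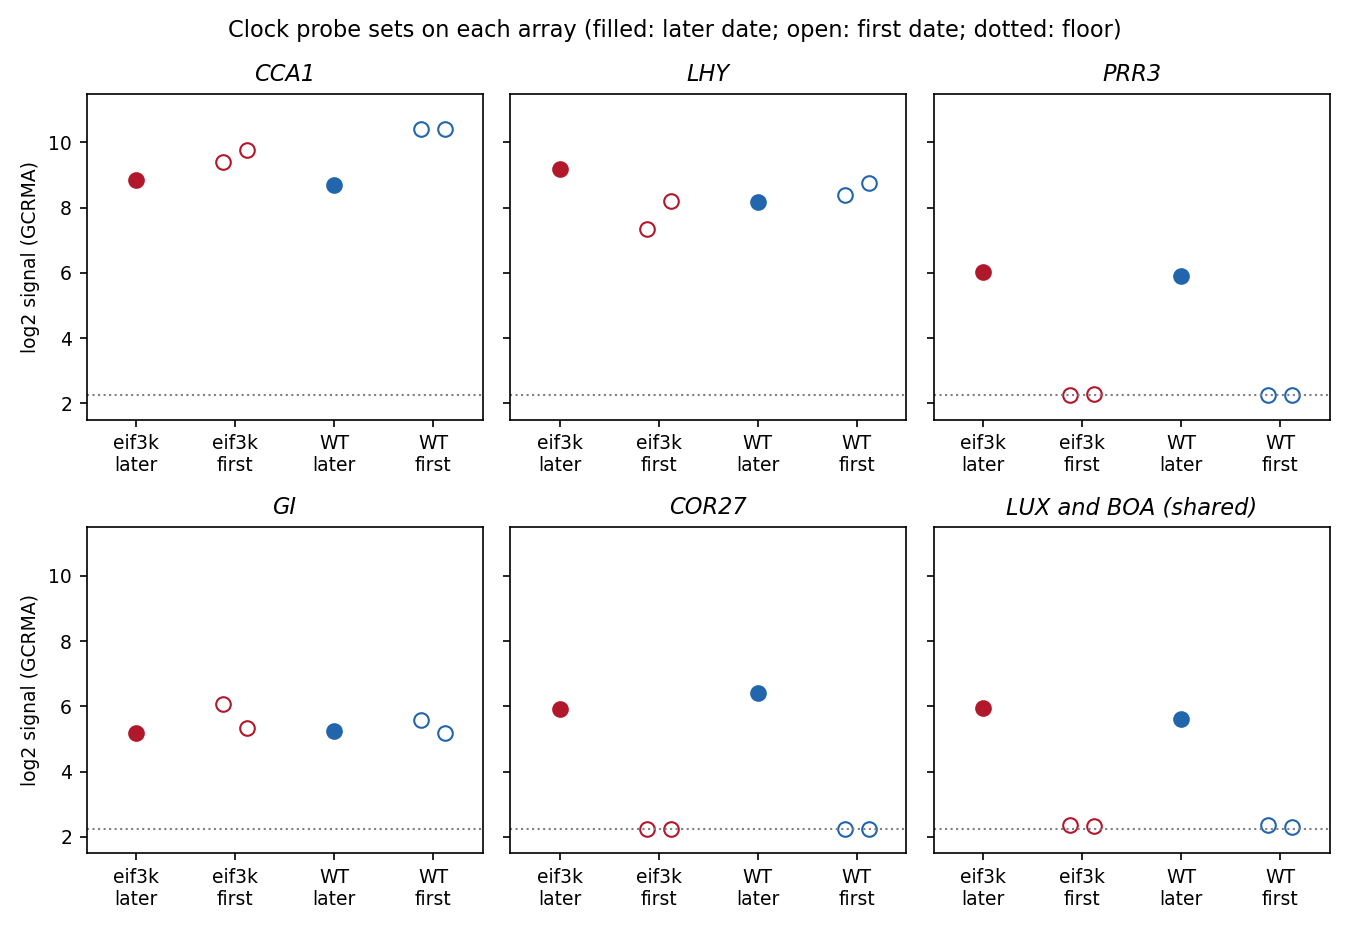
Log2 signal (vertical axis) of the 6 clock probe sets on each array, by genotype and array date, with filled points for the later date, open points for the first date and a dotted line at the floor of 2.25. PRR3, COR27 and the probe set of LUX and BOA lie at or near the floor on the 4 first-date arrays and between 5.62 and 6.42 on the later arrays, while CCA1 is lower on both later arrays.

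For these 3 probe sets the spread within a date came almost entirely from arrays at or near the floor, which vary little, so their standard errors and p-values are too small as measures of variation between seedlings. The differences stayed between 3.29 and 4.17 when any single array was left out, but the calls did not all hold. PRR3 had limma adjusted p-values of 0.0682 or 0.0616 without the first or the second eif3k replicate and 0.0665 without the first wild-type one, and leaving out any of the 4 first-date arrays left COR27 at 0.0901 to 0.149 and LUX with BOA at 0.0766 to 0.113. Within each genotype there was a single later array, so the differences given there for these 3 probe sets are values without a replicate and no call is made from them.

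A log2 difference of at least 3, or 8-fold, toward higher values on the later date was reached by 22 probe sets (0.0967%), of which 3 were clock members and 10 are unnamed here. For the 3 clock members the true differences may be larger, since their first-date signals were at or near the floor, and their ranks are not given. Of all probe sets, 10 (0.044%) had a signal under 3 on every first-date array and above 5 on both later arrays, and 3 of these 10 were clock members. This last description was chosen after the values were seen.

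**Figure D2:**
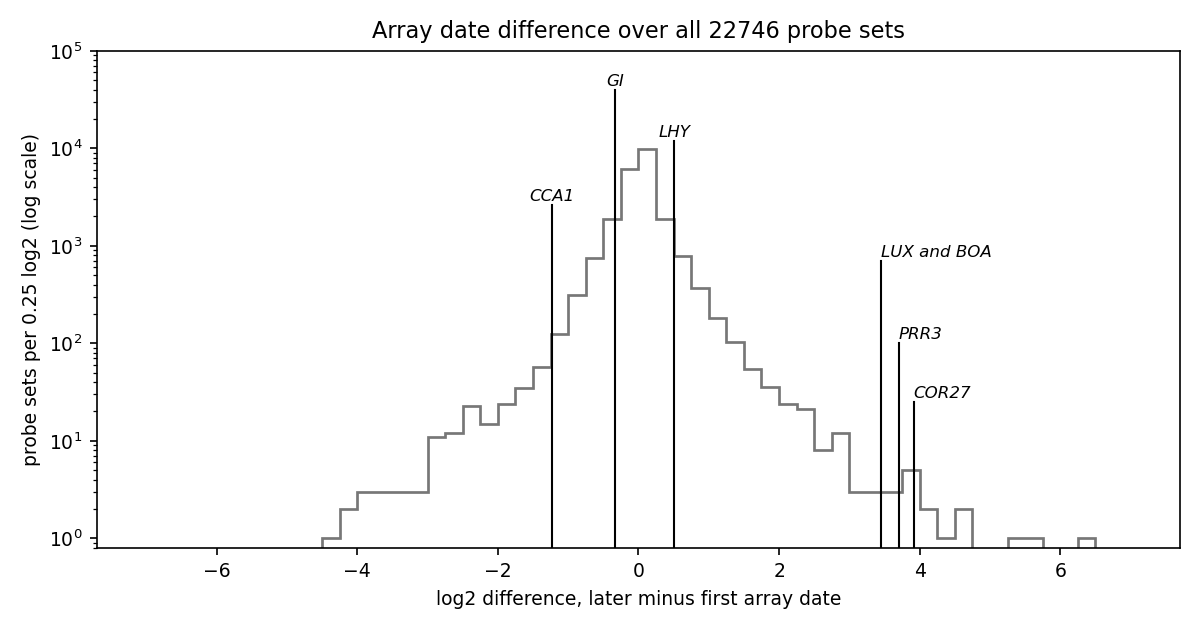
Number of probe sets (vertical axis, log scale) by the log2 difference between the later and the first array date (horizontal axis) over all 22746 probe sets, with lines at the 6 clock probe sets. COR27 at 3.915, PRR3 at 3.70 and LUX with BOA at 3.45 lie in the far right tail, CCA1 at -1.23 lies on the left, and GI and LHY lie near the centre.

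The second comparison asked whether other genes tied to the clock differed between the dates. The output gene GRP7 and, with smaller differences, COR28, CAT2, CAT3 and the FKF1 probe set exceeded all first-date arrays on both later arrays. In this direction 10.6% of all probe sets were separated, and the gap was only 0.04 for CAT2 and 0.01 for CAT3. The MYB relatives RVE5 and RVE6 overlapped between the dates. With all 6 arrays none of these passed the threshold. The lists held 12 MYB relatives and LNK genes, 6 genes of the evening complex and its partners, 11 genes of protein stability and other clock-associated functions, 16 outputs and 13 genes of light input. Probe sets were named for 2 MYB relatives, 2 genes of the evening complex list (BOA, on the probe set shared with LUX, and COR28), 3 genes of protein stability, 4 outputs and 1 gene of light input. Apart from the probe set of LUX and BOA, 0 of these probe sets were called on all arrays, where 0.224% of all probe sets were called higher and 0.11% lower.

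GRP7, an RNA-binding protein whose transcript cycles with an evening peak, read 10.95 in eif3k and 11.86 in wild-type on the later date. On the first date it read 8.11 and 7.01 in eif3k and 7.52 and 7.08 in wild-type. Its values were well above the floor on every array and did not overlap between the dates. The later arrays were higher by 3.975 on the log2 scale (standard error 0.51, unadjusted p = 0.00272, limma adjusted p = 0.107). It was 3.39 within eif3k and 4.56 within wild-type, and it passed when only brighter probe sets were tested, at a limma adjusted p of 0.00836.

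COR28, the paralogue of COR27, read 2.89 in eif3k and 4.26 in wild-type on the later date, against 2.30 to 2.31 on the first-date arrays. The log2 difference of 1.27 (limma adjusted p = 0.292) was 0.585 within eif3k alone and 1.96 within wild-type alone, each from a single later array. The date difference in eif3k minus that in wild-type, -1.375, passed the test, as did 0.492% of all probe sets, but its standard error comes from first-date arrays near the floor and says nothing about variation between seedlings of the later date. The probe set of FKF1, a blue-light receptor that targets clock proteins for degradation, also names 2 other loci. It read 6.94 in eif3k and 7.88 in wild-type on the later date, against 5.58 to 6.27 on the first-date arrays, with a log2 difference of 1.48 (limma adjusted p = 0.241, or 0.0387 when only brighter probe sets were tested).

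Catalases are peroxide-degrading enzymes with transcripts of opposite known phase. CAT3, the evening catalase, read 12.56 in eif3k and 11.72 in wild-type on the later date. First-date arrays read 11.71 and 10.85 in eif3k and 10.78 and 10.57 in wild-type, with a log2 difference of 1.16 (limma adjusted p = 0.25, or 0.0454 when only brighter probe sets were tested). CAT2, the morning catalase, read 13.42 in eif3k and 13.33 in wild-type on the later date, against 12.80 to 13.29 on the first-date arrays, with a difference of 0.27 (limma adjusted p = 0.536). No test of CAT3 against CAT2 was made. Of the 4 output probe sets, 3 were above all first-date arrays on both later arrays, where 10.6% of all probe sets were, but the gap was only 0.01 for CAT3 and 0.04 for CAT2, against 2.84 for GRP7.

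The remaining probe sets had smaller differences, and none passed. RVE5 and RVE6, relatives of CCA1, had date differences of -0.17 and -0.03. TIC, a nuclear regulator needed for clock function, had 0.10, and FIO1, a methyltransferase with a period phenotype, had 0.035 at signals from 2.59 to 2.75. CDF5, a repressor of flowering, had -0.13, at low signals. It read 2.92 and 3.17 on the first-date eif3k arrays and 2.79 on every other array. HYH, a bZIP factor of light signalling, had -0.08, with 0.325 in eif3k and -0.485 in wild-type.

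**Figure D3:**
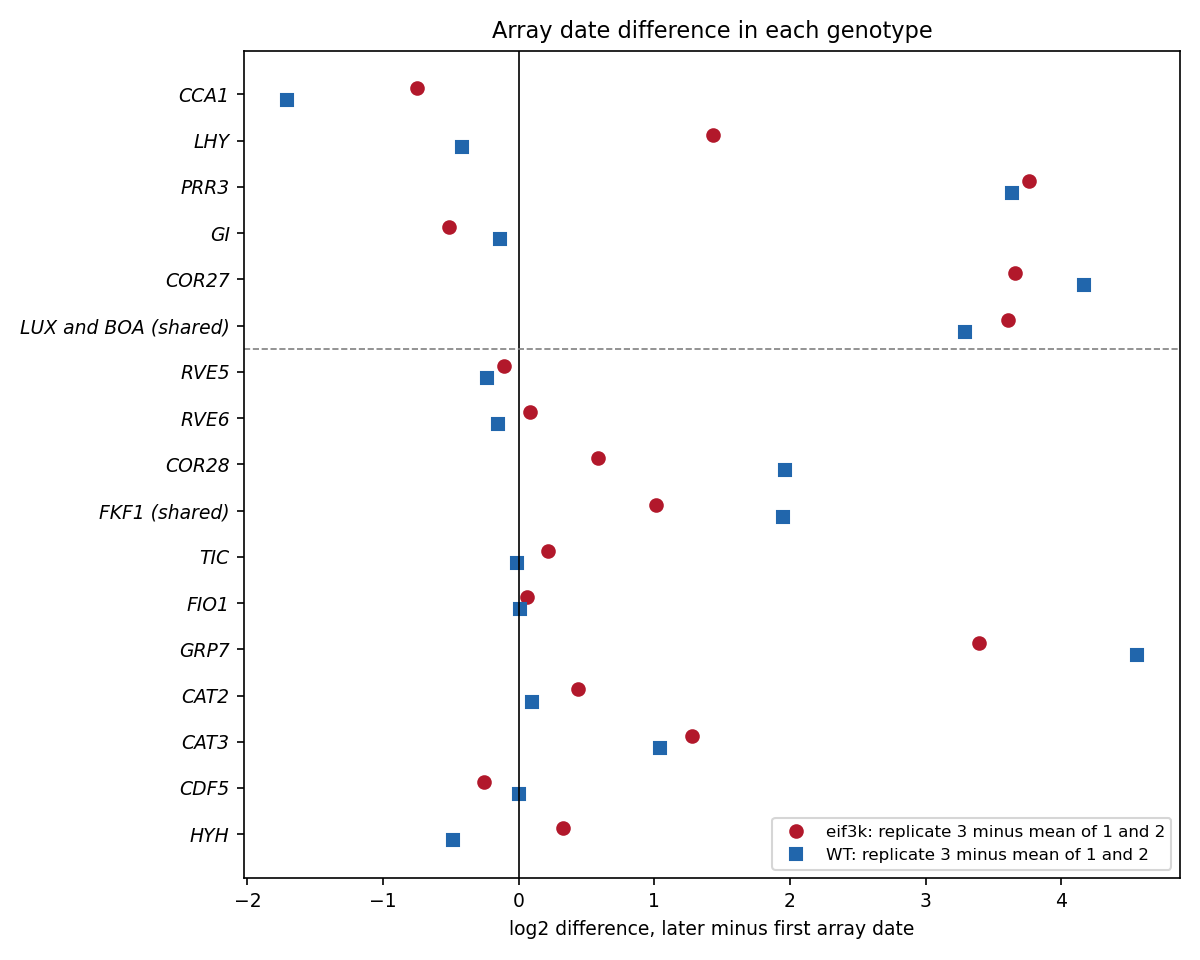
Log2 difference of replicate 3 minus the mean of replicates 1 and 2 (horizontal axis) in eif3k (circles) and wild-type (squares). The 6 clock probe sets are above the dashed line and 11 other clock-related probe sets below it. PRR3, COR27, LUX with BOA and GRP7 lie between 3.29 and 4.56 in both genotypes, CCA1 lies below 0 in both, and LHY lies on opposite sides.

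COR27 and COR28 are also known as cold-induced genes, so genes of the cold response were set beside them. COR15A, which encodes a chloroplast protein that protects in freezing, read 2.90 in eif3k and 4.32 in wild-type on the later date, against 6.19 to 7.40 on the first-date arrays, with a log2 difference of -3.30 (limma adjusted p = 0.17, or 0.0196 when only brighter probe sets were tested). COR15B had 0.87, with -0.155 in eif3k and 1.895 in wild-type. COR47, a dehydrin gene, had 0.20, and the probe set shared by KIN1 and KIN2 had 0.43, with -0.62 in eif3k and 1.485 in wild-type. The cold list held 10 genes, and no probe set was named for CBF1, CBF2, CBF3, RD29A and ERD10. With limma, 0 of these 4 cold probe sets passed on all arrays. Over all probe sets 0.224% were called higher and 0.11% lower.

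The third comparison asked whether the clock transcripts differed between eif3k and wild-type. None passed: with limma on all 6 arrays 0 of the 6 clock probe sets were called, as were 0 of all 22746 (0%), with 694 (3.05%) at an unadjusted p under 0.05. The log2 differences were between -0.49 and 0.19, and the limma adjusted p was 1 for each of the 6. The same fit did not call eIF3k itself (log2 difference -1.98, limma adjusted p = 0.864), so 0 calls do not show equal levels.

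CCA1 averaged 9.34 ± 0.47 in eif3k and 9.83 ± 0.99 in wild-type (SD, n = 3 each), a log2 difference of -0.49 with a standard error of 0.60. The same-numbered arrays differed by -1.0, -0.62 and 0.15, so the lower value in eif3k was seen on the first date and not on the later one. Within the first date the difference was -0.81 (unadjusted p = 0.031, limma adjusted p = 0.834). Leaving out wild-type replicate 3 gave -1.06, and leaving out either other wild-type array gave -0.205. The genotype fit had no date term, so leaving out 1 array left the dates unequal between the genotypes. Such values, here and for LHY and GI below, thus also hold part of the date difference.

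LHY averaged 8.25 ± 0.93 in eif3k and 8.44 ± 0.30 in wild-type (SD, n = 3 each), a difference of -0.19. Its pair differences were -1.05, -0.56 and 1.04, the widest range of the 6 clock probe sets. Within the first date it was -0.805 (limma adjusted p = 0.915), close to the value of CCA1 there, and without eif3k replicate 1 it was 0.26. GI averaged 5.53 ± 0.48 in eif3k and 5.34 ± 0.22 in wild-type (SD, n = 3 each), a difference of 0.19 with pair differences of 0.49, 0.14 and -0.06. The difference was -0.08 without eif3k replicate 1. None of these exceeded the spread between replicates.

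For PRR3, COR27 and LUX with BOA the genotypes can be compared only on the later date, since both genotypes were at or near the floor on the first. There eif3k minus wild-type was 0.14 for PRR3, -0.51 for COR27 and 0.34 for LUX with BOA, each from 1 array of each genotype and thus without a replicate. Over all arrays the means of PRR3 were 3.52 ± 2.17 in eif3k and 3.46 ± 2.1 in wild-type (SD, n = 3 each), where the SD reflects the 2 dates. With the array date as a block the standard error of the genotype difference was 0.03 for PRR3, 0.13 for COR27 and 0.08 for LUX with BOA. The first-date arrays in these fits were at or near the floor and vary little. These standard errors thus say little about variation between seedlings. The calls did not change, with limma adjusted p-values of 0.899 for each of the 3.

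**Figure D4:**
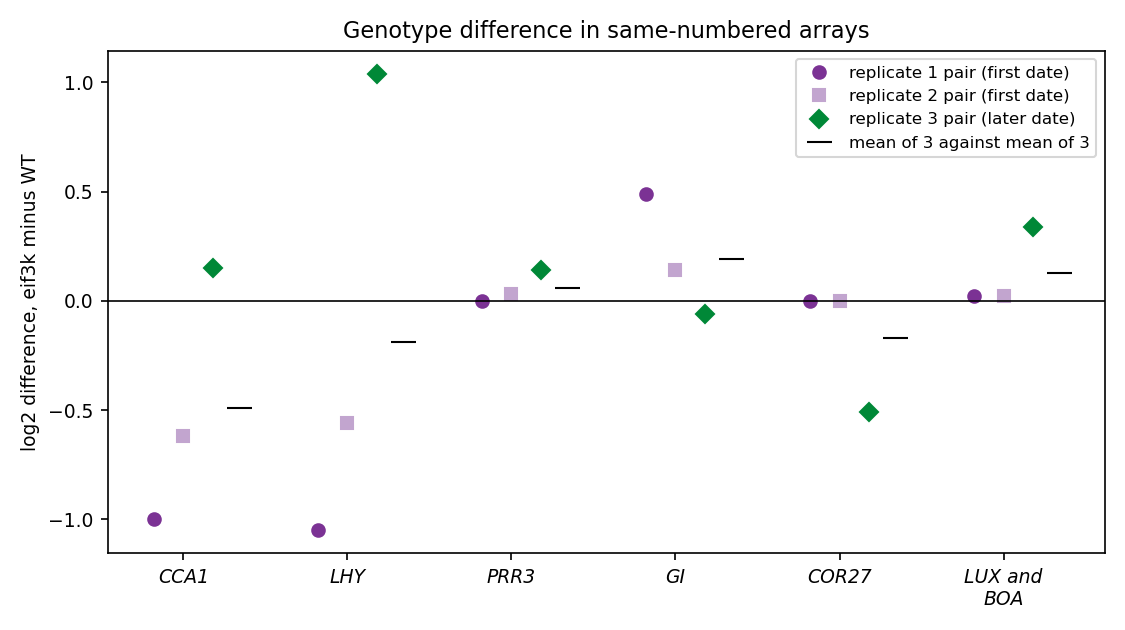
Log2 difference of eif3k minus wild-type (vertical axis) in each same-numbered pair of arrays for the 6 clock probe sets, with a short bar for the difference of the means over 3 arrays each. CCA1 and LHY lie below 0 in replicates 1 and 2 and above 0 in replicate 3, and PRR3, COR27 and LUX with BOA are within 0.03 of 0 in replicates 1 and 2.

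Across the 6 arrays Pearson correlations were 0.995 between PRR3 and COR27, 0.999 between PRR3 and LUX with BOA, and 0.99 between COR27 and LUX with BOA. CCA1 had -0.855 with PRR3, -0.858 with COR27 and -0.854 with LUX with BOA, but 0.03 with LHY. GI, which peaks toward dusk, had -0.489 with PRR3, -0.48 with COR27 and -0.479 with LUX with BOA, and it had -0.827 with LHY and 0.10 with CCA1. These values describe 6 arrays that share 2 dates, and for PRR3, COR27 and LUX with BOA they reflect 2 levels, that of the floor and that of the later arrays.

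By the same measure, the 3 probe sets with a single named gene most like CCA1, among 1882 with a range of at least 1, were AT5G48490 at 0.993, AT5G10950 at 0.984 and AT5G35460 at 0.982. AT5G35460 read 7.04 on both later arrays, against 7.74 to 8.32 on the first-date arrays. The 3 most like GI were the beta-glucosidase gene BGLU47 at 0.976, AT2G22610 at 0.975 and AT1G67690 at 0.973. These are the highest of 1882 correlations over 6 arrays that share 2 dates, and are given as a description.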

How the data were processed

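The deposited values are log2 probe set signals, which the authors summarised with GCRMA per the submitters' processing notes with no version stated. Base 2 follows from GCRMA itself and the range of the signals. GCRMA corrects background by probe sequence and normalizes quantiles across arrays, so a broad shift would be removed and dim probe sets share a floor. The study itself worked from RMA values. Of 22810 probe sets, 64 controls were left out. The platform annotation named 14016, the study's supplement a further 545, and 8185 are unnamed here; where both named a probe set (883), 846 shared a locus. RefSeq supplied locus names.

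Tests came from limma 3.58.1 (R 4.3.3), with lmFit and eBayes (2-sided, Benjamini-Hochberg adjustment over 22746 probe sets). Genotype was fitted without a block, array date with genotype, and the interaction and the date within each genotype over the 4 cells of genotype and date. The genotype and date fits were tested on simulated data, with changes added to brighter probe sets only. For the genotype fit no date difference was simulated, so it was not tried with the spread between the dates. Recovery near the floor was not checked there. The members and lists were chosen with earlier results of these data known. The naming rule took every clock member whose probe set names 1 gene, the probe sets of smallest p in each list (3 for date, 1 for genotype) and the 3 most like CCA1 and GI (TOC1 had none). The probe set of LUX and BOA and the remaining named probe sets of the lists were added after their values were seen. With 3 arrays a genotype, precision is limited by their number. Alternatives were scaling, variance prior, dim filters, threshold, array weights, blocks and left-out arrays. Promoter and protein sequences were not used here.

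The replicate numbers were judged to pair the arrays, as the labels tie replicate 3 to its own date, and the fit with them as a block was run as an alternative to the unblocked main one. Same-numbered arrays deviated together from their group means, with correlations of 0.247, 0.378 and 0.542 over probe sets, but also at 0.308 and 0.395 between arrays of unlike number within the first date.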

Additional observations from a re-analysis of the deposited data

Results flagged for a closer look

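In 3 cases, replicate 3 lay on opposite sides of both other replicates of its genotype in eif3k and in wild-type. LHY had a date difference of 1.43 in eif3k and -0.415 in wild-type (difference 1.84, limma adjusted p = 0.551). HYH had 0.325 in eif3k and -0.485 in wild-type (difference 0.81, limma adjusted p = 0.69). The probe set of KIN1 and KIN2 had -0.62 in eif3k and 1.485 in wild-type (difference -2.1, limma adjusted p = 0.293). The test of the difference did not pass for any of the 3.

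In 2 further cases the date difference itself differed between the genotypes by limma's adjusted p. It was lower in eif3k by a log2 difference of -0.51 for COR27 (limma adjusted p = 0.00106) and of -1.38 for COR28 (limma adjusted p = 0.00132). Only COR28 also passed the 2-fold criterion, which 0.492% of all probe sets passed. All first-date arrays of both genes were within 0.06 of the floor, so the standard errors of 0.0026 and 0.0084 say little about the later arrays, of which there was 1 in each genotype. For COR27 the limma adjusted p of this difference was 0.122 with median centring and 0.374 with a trended, robust prior. As groups had 3 arrays, no array was tested as an outlier.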

How the results depend on the processing

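The genotype count was 0 under all alternatives tried, which were other scaling, prior, threshold, weights, filters, blocks, the first date alone and leaving out each array; with the replicate number as a block it was 0 with 1089 probe sets at an unadjusted p under 0.05, CCA1 was again at -0.49, and the block changed no other call. The array date count of 76 (67.1% higher) depended strongly on the settings. It was 156 with adjusted p alone, 160 with median centring (56.2% higher), 4 with a trended, robust prior, 471 over brighter probe sets, 29 with array weights, 129 without a genotype term, and between 0 (without wild-type replicate 1) and 204 (without wild-type replicate 3) when 1 array was left out, with 1 without eif3k replicate 1 or eif3k replicate 2 and 8 without wild-type replicate 2. A filter added after seeing the data, a signal above 5 on at least 2 arrays, gave 494; PRR3, COR27 and LUX with BOA pass it only through the later arrays where they are high. The interaction count of 112 was 65 with median centring and 3 with the added filter. The date count within eif3k, 204, was 366 with centring and 601 with the added filter, and within wild-type, 113, it was 261 with the added filter. The cause of these changes was not tested.

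Among clock members, CCA1 passed for the date over brighter probe sets and with the added filter, at -1.23. COR27 and LUX with BOA did not pass with the trended prior (limma adjusted p = 0.0735 and 0.0651), where PRR3 did (0.0367). For genotype, array weights turned PRR3 to -0.0551, LUX with BOA to -0.0361, COR15A to 0.60 and KIN1 with KIN2 to 0.0121. The first date alone turned COR28 to 0.005, GRP7 to 0.26, HYH to -0.09, COR15A to 0.645, COR15B to 0.03 and KIN1 with KIN2 to 0.165. For the date, median centring turned FIO1 to -0.02. As the genotype fit had no date term, its ranges with 1 array left out also hold part of the date difference. When 1 array was left out, the genotype difference ranged from -0.67 to 0.26 for LHY, -1.20 to 1.27 for PRR3, -0.0833 to 0.362 for GI, -1.39 to 1.22 for COR27, -1.08 to 1.22 for LUX with BOA, -0.78 to 0.20 for COR28, -0.76 to 0.33 for FKF1, -0.102 to 0.0317 for TIC, -1.26 to 1.39 for GRP7, -0.287 to 0.0233 for CAT2 and -0.85 to 1.40 for COR15A. The date difference ranged from -0.415 to 1.43 for LHY, -0.15 to 0.085 for RVE6, -0.01 to 0.215 for TIC, -0.485 to 0.325 for HYH, -0.155 to 1.895 for COR15B, -0.035 to 0.44 for COR47 and -0.62 to 1.485 for KIN1 with KIN2, and it kept its sign for CCA1 (-1.71 to -0.75), PRR3 (3.64 to 3.765), COR27 (3.66 to 4.17), LUX with BOA (3.29 to 3.61) and GRP7 (3.39 to 4.56). None of the reversed values had passed the threshold.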

Other observations

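Of the 10 probe sets with a signal under 3 on every first-date array and above 5 on both later arrays, the 7 that are not clock members include 5 that are unnamed here and the genes AT5G62360 and AT2G23910, singled out after their values were seen. AT2G23910 read 6.33 in eif3k and 5.70 in wild-type on the later date, against 2.25 on all 4 first-date arrays. AT5G62360 read 5.17 in eif3k and 6.01 in wild-type on the later date, against 2.29 to 2.31 on the first-date arrays.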
